A study of Mus musculus with 22 samples.

Results

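The genes described here are 39 genes of the cell cycle, of DNA replication and of its restraint, taken as a list by name: the cyclins and their kinases, the licensing and synthesis machinery of replication, the mitotic apparatus, and the inhibitors of cyclin-dependent kinases (CDKs). Of these, 38 were measured among the 18194 genes of the array, and Ccnb1, the major mitotic cyclin, was not analysed here. They fell into 5 G1 cyclins and kinases, 3 genes of S phase entry, 9 of replication licensing, 4 of DNA synthesis, 12 of G2 and mitosis and 5 CDK inhibitors. The first 5 roles together, 33 measured genes, are called cycle-driving genes below. Each gene was represented by the probe set, a set of short oligonucleotides against one transcript, with the highest mean over the cells, and 12 of the 38 genes had a single probe set.

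The study profiled 22 single mouse retinal cells, each on its own Affymetrix array. They comprised 13 ganglion cells, whose axons form the optic nerve (3 at embryonic day 12.5 (E12.5), 1 at E13.5, 2 at E14.5, 3 at E15.5 and 4 on the day of birth, P0), 6 amacrine cells, inhibitory interneurons (1 at E16.5 and 5 at P0), and 3 photoreceptors (2 at P0 and 1 adult rod). The labels name the CD1 strain for 9 of the cells and give no genotype, treatment, animal or adult age, and cell types were assigned by the authors after profiling. Cells are named here by stage, type and the label's code, since codes recur between groups.

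Progression through the cycle is driven by successive cyclin and CDK pairs: D-type cyclins with Cdk4 or Cdk6 in G1, E-type cyclins with Cdk2 at S phase entry, and A- and B-type cyclins with Cdk1 into mitosis. Origins are licensed when Cdc6 and Cdt1 load the ring of Mcm2 to Mcm7, and geminin (Gmnn) blocks Cdt1 after firing. In the retina, progenitors divide and then leave the cycle for good as they become neurons, and CDK inhibitors such as p27 (Cdkn1b) and p57 (Cdkn1c) take part in that exit. Transcripts of the S phase genes are known to be controlled through E2F sites, and those of G2 and mitosis through a cell cycle homology region (CHR), often near CCAAT boxes.

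Signals are linear intensities on arrays scaled to a 2% trimmed mean of 500. A gene was called held by a cell at a signal of 1000 or more, and signals under 200 were raised to that floor (log2 7.64) before any log2 value was taken. Each cell held between 1518 and 4352 of all genes, with a median of 2997. The adult rod and E16.5 amacrine J6 stood apart, with 55.0% and 57.9% of all genes above the floor of 200 against 20.6% to 37.2% in the other cells, and the array of P0 amacrine B1 had to be multiplied by 27.6 to reach the common scale. Type markers were mostly in place: the 13 ganglion cells held 5 to 7 of 7 ganglion markers and the 6 amacrine cells 2 to 4 of 6 amacrine markers. The 3 photoreceptors held 6 or 7 of 7 photoreceptor markers. Some markers of other types were held too. Amacrine cells held 0 to 2 ganglion markers, with 2 in E16.5 J6 and in P0 B1, which held 2 amacrine markers. Photoreceptors held 1 or 2 amacrine markers, among them Gad1 in P0 E1 (15552) and the adult rod (9039). Ganglion cells held 0 or 1 amacrine and 0 or 1 photoreceptor marker.

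Promoter sequences are shown for members held by the cells described first below: 4 mitotic genes held by E14.5 ganglion E1, 2 MCM genes it also held, Cdk2, held by P0 ganglion C6 and P0 photoreceptor H1, and Cdk4, held nearly everywhere. They were chosen after their matches had been seen. The sequences are RefSeq's (GRCm38.p6), each the 250 bases before the annotated start, read 5′ to 3′ in the direction of transcription. Capitals in the next 4 mark matches on either strand to the CHR word TTTGAA.
Cdk1, chr10:69352913-69353162, strand minus: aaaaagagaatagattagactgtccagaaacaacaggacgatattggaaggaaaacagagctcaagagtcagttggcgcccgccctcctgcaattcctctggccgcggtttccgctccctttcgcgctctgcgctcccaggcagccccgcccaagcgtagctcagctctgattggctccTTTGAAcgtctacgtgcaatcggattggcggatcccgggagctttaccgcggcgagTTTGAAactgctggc
Top2a, chr11:99024190-99024439, strand minus: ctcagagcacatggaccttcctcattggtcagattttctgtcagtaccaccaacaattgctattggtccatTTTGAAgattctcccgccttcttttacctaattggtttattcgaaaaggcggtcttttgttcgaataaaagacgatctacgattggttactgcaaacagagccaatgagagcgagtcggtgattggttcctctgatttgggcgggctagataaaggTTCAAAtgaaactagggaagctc
Cdc20, chr4:118437344-118437593, strand minus: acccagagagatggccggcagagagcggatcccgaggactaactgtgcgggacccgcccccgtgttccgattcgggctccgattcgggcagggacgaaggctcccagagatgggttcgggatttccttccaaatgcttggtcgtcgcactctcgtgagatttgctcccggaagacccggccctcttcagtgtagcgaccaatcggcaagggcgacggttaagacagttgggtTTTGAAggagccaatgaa
Mki67, chr7:135716380-135716629, strand minus: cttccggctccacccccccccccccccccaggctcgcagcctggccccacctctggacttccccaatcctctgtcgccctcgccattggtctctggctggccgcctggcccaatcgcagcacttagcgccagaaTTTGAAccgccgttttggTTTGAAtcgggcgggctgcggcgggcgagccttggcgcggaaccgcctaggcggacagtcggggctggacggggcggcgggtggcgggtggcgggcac
In the next 3, capitals mark matches on either strand to any of 4 E2F-like words, namely TTCCCGC or TTCGCGC or TTGCCGC or TTGGCGC, where overlapping matches run together.
Mcm5, chr8:75109259-75109508, strand plus: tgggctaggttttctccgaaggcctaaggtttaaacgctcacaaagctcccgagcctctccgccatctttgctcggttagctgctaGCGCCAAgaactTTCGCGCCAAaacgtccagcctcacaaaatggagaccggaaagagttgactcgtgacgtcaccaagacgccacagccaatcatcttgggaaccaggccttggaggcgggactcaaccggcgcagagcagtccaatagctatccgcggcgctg
Mcm6, chr1:128359706-128359955, strand minus: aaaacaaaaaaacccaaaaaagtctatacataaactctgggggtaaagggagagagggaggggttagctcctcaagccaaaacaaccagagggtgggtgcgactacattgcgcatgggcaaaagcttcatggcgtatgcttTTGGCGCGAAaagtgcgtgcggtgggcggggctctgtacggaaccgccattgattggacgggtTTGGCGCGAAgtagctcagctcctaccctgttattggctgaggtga
Cdk2, chr10:128705052-128705301, strand minus: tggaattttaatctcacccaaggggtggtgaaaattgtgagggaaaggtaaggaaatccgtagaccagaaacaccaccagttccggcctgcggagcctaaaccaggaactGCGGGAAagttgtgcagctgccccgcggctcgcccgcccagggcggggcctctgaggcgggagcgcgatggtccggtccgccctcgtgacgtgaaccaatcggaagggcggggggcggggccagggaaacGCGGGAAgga
The Cdk4 sequence holds no match to either motif and has no capitals.
Cdk4, chr10:127063285-127063534, strand plus: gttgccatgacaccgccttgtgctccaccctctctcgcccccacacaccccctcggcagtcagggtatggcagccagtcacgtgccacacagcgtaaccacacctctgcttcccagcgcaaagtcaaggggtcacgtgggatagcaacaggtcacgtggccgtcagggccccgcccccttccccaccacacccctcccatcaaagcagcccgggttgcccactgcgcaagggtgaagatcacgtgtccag

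Promoters were found for 30 of the 38 measured members, with 34 windows of 250 bases before to 50 bases after a start. The CHR word lay in 8 of the 10 G2 and mitosis windows (80%) and in 1 of the 8 licensing windows (12.5%), against 17.9% of all 32851 windows of the table. E2F-like words showed the other distribution, with 7 of the 8 licensing windows (87.5%), 2 of the 4 DNA synthesis windows and 2 of the 10 G2 and mitosis windows, against 9.57% of all windows. CCAAT, searched on both strands, lay in 9 of the 10 G2 and mitosis windows, 6 of the 8 licensing windows and 3 of the 4 DNA synthesis windows, against 37.4% of all. None of the 4 windows of G1 cyclins and kinases held the CHR word or an E2F-like word. A match is a description of letters in the window, and binding was not measured.

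Over the 22 cells, 157 of the 836 member values (18.8%) were held, against 16.2% over all genes. The members were thus near the general share as a whole, and their spread over cells was wide. E14.5 ganglion E1 held 22 of the 33 cycle-driving genes and E14.5 ganglion D8 held 13, P0 ganglion C6 held 9 and P0 photoreceptor H1 held 8. The other 18 cells held between 2 and 7, with a median of 4. The place of C6 and H1 above the rest depended on the setting: at a signal of 500 the adult rod held 15 and E16.5 amacrine J6 10, beside 26 in E1, 15 in D8, 11 in C6 and 10 in H1. Counting any probe set of a gene, the adult rod held 10, more than C6 (9) and H1 (8), and E12.5 ganglion E4 equalled H1 at a signal of 2000 (7 each), as did P0 amacrine D1 after quantile normalization (8 each). The counts at 1000 stand beside the share of all genes held in the same cell, which was 22.7% in E1, 17.1% in D8, 17.0% in C6 and 16.8% in H1, against 66.7%, 39.4%, 27.3% and 24.2% of the cycle-driving genes. The cell with the most genes held, P0 ganglion F1 (23.9%), was not among them and held 4 of the 33 (12.1%). Next in genes held among ganglion and amacrine cells, outside E14.5, were P0 amacrine F6 (22.7%, 6 of the 33), E16.5 amacrine J6 (20.4%, 6 of the 33), E12.5 ganglion F6 (19.8%, 5) and F3 (19.2%, 3), and P0 ganglion A3 (19.1%, 2). The cell with the fewest genes held, E15.5 ganglion C7 (8.34%), held 5. No test was made between cells, because no animal is named and single cells are not replicates of a condition.

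**Figure D1:**
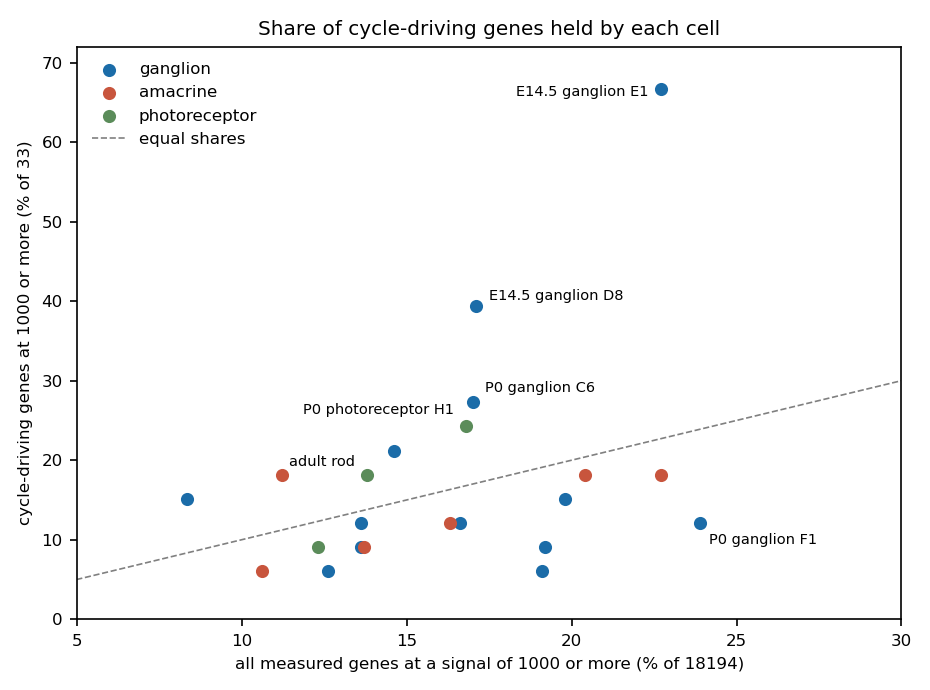
Each point is 1 cell; the x axis gives the percentage of all 18194 measured genes at a signal of 1000 or more, the y axis the same percentage for the 33 cycle-driving genes, and the dashed line marks equal shares. E14.5 ganglion E1 (66.7% against 22.7%) and D8 (39.4% against 17.1%) lie farthest above the line, and P0 ganglion F1 (12.1% against 23.9%) lies below it.

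The E14.5 ganglion cells differed from each other in the roles they held. E1 held 3 of the 5 G1 genes, 2 of the 3 of S phase entry, 6 of 9 licensing genes, 2 of 4 synthesis genes and 9 of 12 of G2 and mitosis. D8 held 3 G1 genes, none of S phase entry, 3 licensing genes, 3 synthesis genes and 4 of G2 and mitosis. Both cells held 11 members together: Ccnd1, Ccnd3, Cdk4, Cdc6, Mcm2, Rrm2, Ccna2, Cdk1, Top2a, Birc5 and Cdkn1b. E1 held 12 that D8 did not, among them Mki67 (8637 against 731), Ccnb2 (3933 against 329) and Pcna (8996 against 526), while D8 alone of the pair held Mcm4, Rrm1, Tyms and Cdkn2d. No other cell held 3 or more mitosis members.

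Of the 38 measured members 36 were held by at least 1 cell, against 60.4% of all genes. Of these 36, 6 (16.7%) were held only by E14.5 ganglion cells, against 2.42% of the 10989 genes held by any cell. These 6 were the E-type cyclin Ccne2, licensing factor Cdc6, mitotic cyclin Ccnb2, mitotic exit activator Cdc20, proliferation marker Mki67 and Birc5. Birc5 (survivin) is a subunit of the chromosomal passenger complex. Cdc6 and Birc5 were held by both E14.5 cells, and Ccne2, Ccnb2, Cdc20 and Mki67 by E1 alone. Under the threshold, Birc5 reached 806 in P0 ganglion C6 and 745 in the adult rod, and Cdc20 reached 777 in the rod. Beyond the members, the replication and mitosis genes of a wider list were counted in the same way: E1 held 18 and D8 9 of 42 further replication genes (0 to 11 in the other 20 cells), and 26 and 13 of 50 further mitosis genes (1 to 8 in the other 20). Of all genes, E1 held 22.7% and D8 17.1%, and the 9 replication genes of D8 lay within the range of the other cells. E1 also held 9 and D8 5 of 14 retinal progenitor factors (0 to 7 in the other 20 cells). These included Sox2 (12986 and 9252) and Notch1 (9186 and 5117) in both and Fgf15 (15139) in E1. Six3 and Six6 were also held in both, but each was held in 11 cells in all. Hes1 (893 in E1 and 142 in D8), Hes5 (46.0 and 79.8), Rax (130 and 372) and Dll1 (637 and 884) were held in neither. Sox2 was also held in 3 amacrine cells (28154 to 34281) and P0 photoreceptor H1 (10393). Notch1 was also held in all 3 photoreceptors (1149 to 14296), and Fgf15 was held in 4 cells in all. At the same time both E14.5 cells held nearly the full list of postmitotic neuron genes, 11 and 12 of 12, and 5 and 7 of the 7 ganglion markers.

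Markers of other cells were also held in this pair. Of 6 lens markers E1 held 5 and D8 held 4, with Cryaa at 34776 and 28896, Cryba1 at 37010 and 37077, Crybb1 at 35953 and 31936, and Mip at 7182 and 4482, and the summed lens signal was 120152 and 103248. In the other 20 cells that sum ran from 105 to 7320, the highest being E13.5 ganglion A3, which held Cryaa alone (5861). Cryab was not held in either cell (215 and 563), and Crygs was held in E1 only (5015). Of 5 blood markers E1 held 3 and D8 2, and the 3 E15.5 ganglion cells held 2 or 3 with 3 to 5 cycle-driving genes each. Both cells also held 2 of 7 glial markers, Glul (5519 in E1 and 5739 in D8) and Clu (3201 and 1732), with summed glial signals of 8897 and 7837 against 472 to 3927 in the other 11 ganglion cells. Each cell of the pair held 1 of 5 vascular markers, Kdr in E1 (1368) and Cldn5 in D8 (1540), against 0 in those 11 cells. The part of any of these in the cycle gene counts was not tested.

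**Figure D2:**
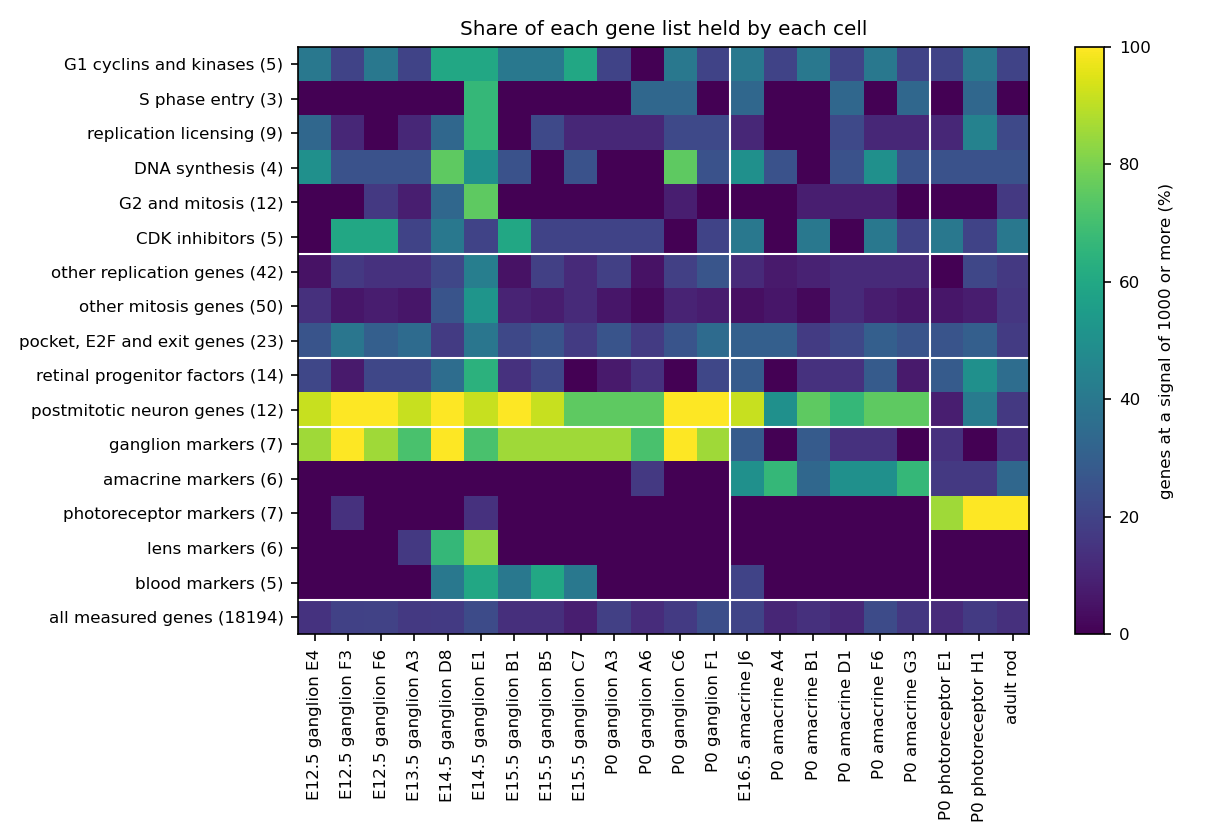
Each column is 1 cell and each row 1 gene list with its number of measured genes; colour gives the percentage of the list at a signal of 1000 or more. E14.5 ganglion E1 and D8 are the brightest columns for G2 and mitosis (9 and 4 of 12), other mitosis genes (26 and 13 of 50) and lens markers (5 and 4 of 6), and they are also bright for postmitotic neuron genes.

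P0 ganglion C6 held genes of G1, S phase entry and synthesis with few of mitosis. It held Ccnd1 (9144), Cdk4 (12225), Cdk2 (2907), Gmnn (5908), Mcm6 (5624), Pcna (25568), Rrm1 (4771), Rrm2 (4651) and Bub1 (1998), a spindle checkpoint kinase. Its Pcna signal was the highest of all 22 cells, and no CDK inhibitor was held, with Cdkn1b at 876. Mitotic Top2a (936) and Birc5 (806) lay just under the threshold. Unlike the E14.5 cells, C6 held 0 of the 14 progenitor factors, 0 of 6 lens and 0 of 5 blood markers, with all 12 neuron genes and all 7 ganglion markers held. Of the further lists it held 8 of 42 replication genes and 5 of 50 mitosis genes, beside 17.0% of all genes.

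P0 photoreceptor H1 held 4 subunits of the MCM ring, Mcm2 (3106), Mcm3 (4107), Mcm6 (2744) and Mcm7 (1914), beside Ccnd1 (35330), Cdk4 (32280), Cdk2 (3548) and Pcna (18618). Its Ccnd1 and Cdk2 signals were the highest of the 22 cells. It held 0 of the 12 genes of G2 and mitosis, and of the inhibitors it held Cdkn1b (3230). H1 held 7 of the 7 photoreceptor markers and 7 of the 14 progenitor factors, among them Sox2 (10393) and Dll1 (7032), with 5 of the 12 neuron genes. It also held 3 of 7 glial markers, Glul (9896), Rlbp1 (8157) and Clu (8963), the vascular marker Kdr (16485) and the pigment epithelium marker Pmel (5204), each 1 of 5 in its list. Its Kdr signal and its summed vascular signal (16924) were the highest of the 22 cells, and no other cell held Pmel. Other pigment epithelium markers were held elsewhere, Dct in P0 photoreceptor E1 (14446) and Mitf in the adult rod (171899) and E13.5 ganglion A3 (1442). The summed pigment epithelium signal was 5578 in H1, below 14788 in P0 photoreceptor E1 and 172849 in the adult rod. Clu was also higher in the adult rod (246123). The part of these markers in the counts was not tested. The other P0 photoreceptor, E1, held 3 cycle-driving genes (Cdk4, Mcm7 and Rrm1), 4 progenitor factors and 1 neuron gene.

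**Figure D3:**
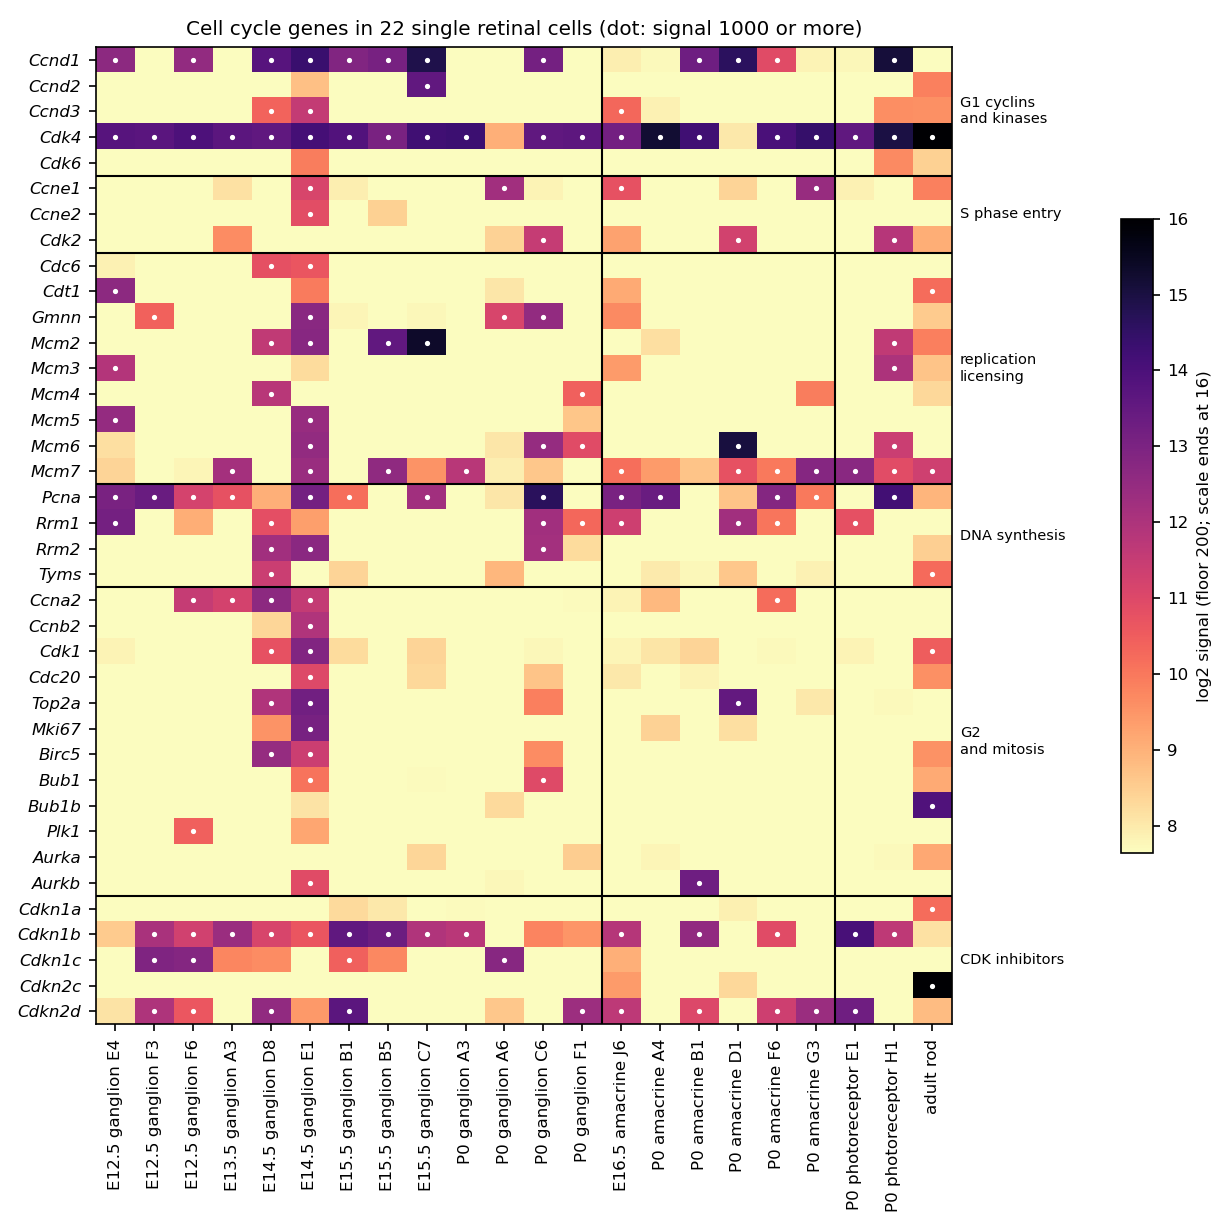
Rows are the 38 measured members grouped by role, columns the 22 cells grouped by type; colour gives log2 signal from the floor at 7.64 to 16, and a dot marks a signal of 1000 or more. The G2 and mitosis block is filled in E14.5 ganglion E1 (9 of 12) and partly in D8 (4 of 12), while the Cdk4 row is filled in 20 of 22 cells.

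Among the G1 genes, Cdk4 was the member held most widely, in 20 of 22 cells. In ganglion cells its signal ran from 518 to 19763 with a median of 13377 (n = 13), in amacrine cells from 262 to 37309 with a median of 18053 (n = 6), and in the 3 photoreceptors it was 12099, 32280 and, in the adult rod, 215041. The low ends were single cells, P0 ganglion A6 (518) and P0 amacrine D1 (262); all other ganglion cells lay at 8460 or above. All 3 probe sets of Cdk4 were held in the same number of cells, 20. Every type and stage had at least 1 cell that held it.

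Ccnd1, the cyclin D1 partner of Cdk4 and the chief D-type cyclin of retinal progenitors, was held in 12 cells. Ganglion cells held it in 8 of 13, with a lowest signal of 14.8, a median of 6413 and a highest of 29883, in E15.5 C7. In amacrine cells it was 24917 in D1, 9942 in B1 and 1949 in F6 at P0, and from 213 to 243 in the other 3. The photoreceptors had 35330 in H1, 216 in E1 and 73.7 in the adult rod. Its values were split inside each type, at 1949 or above or at 243 or below. All E14.5 and E15.5 ganglion cells held it (7571 to 29883), and of the 4 P0 ganglion cells only C6 did. A second probe set was held in 9 of these 12 cells, and the remaining probe set in 4 cells, of which 1 was among the 12.

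The other D-type cyclins were rare. Ccnd2 was held in E15.5 ganglion C7 (11868) only on the probe set used, while 2 of its 6 other probe sets were each held in 1 cell other than C7 (1569 and 1201). Ccnd3 was held in E14.5 ganglion E1 (2987), E14.5 ganglion D8 (1316) and E16.5 amacrine J6 (1253). Cdk6, the second D-type kinase, was held in none, its highest signal being 958 in E14.5 ganglion E1. Cyclin D1 and Cdk4 were held together in 11 cells, and Cdk4 was held without Ccnd1 in 9.

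**Figure D4:**
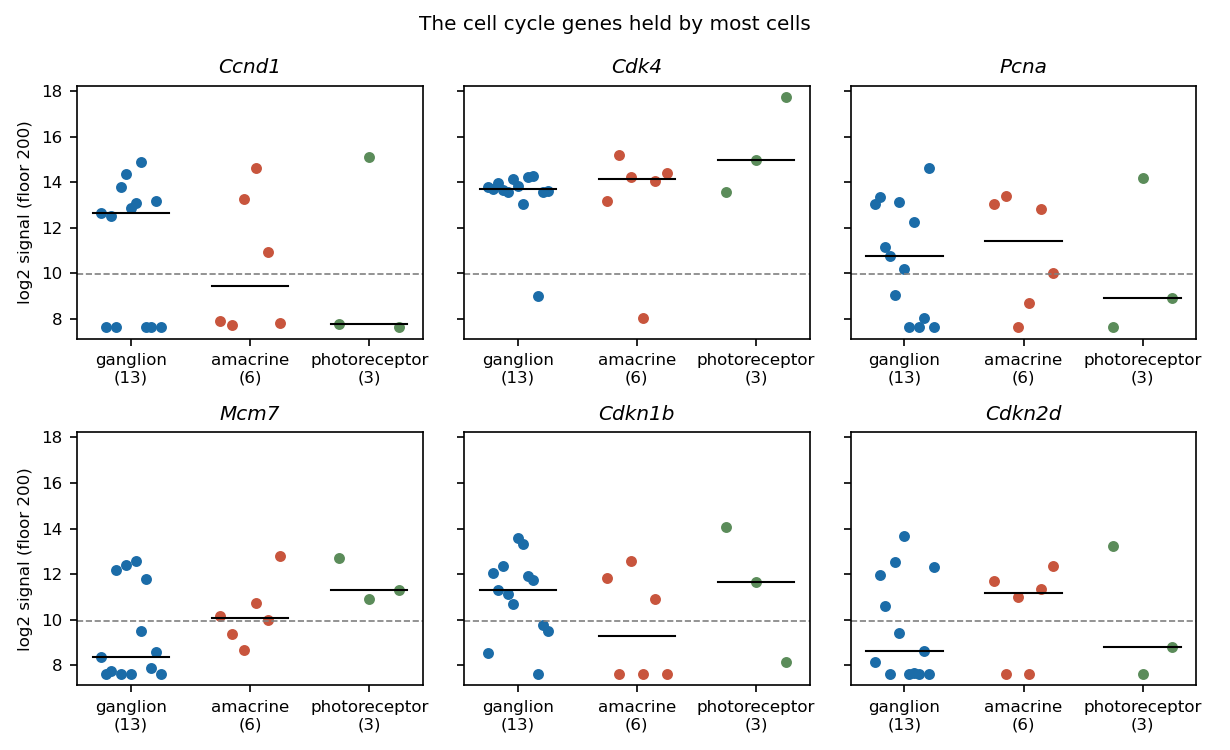
Points are single cells, with the log2 signal (floor 200) on the y axis, cell types on the x axis, black bars at the median and the dashed line at 1000. Cdk4 lies above the line in 20 of 22 cells, and Ccnd1, Pcna, Mcm7, Cdkn1b and Cdkn2d each have cells on both sides of it.

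At S phase entry, the kinase and its cyclins were each held in few cells, Cdk2 in 3, Ccne1 in 4 and Ccne2 in 1. Cdk2 was held in P0 ganglion C6 (2907), P0 amacrine D1 (2439) and P0 photoreceptor H1 (3548). Ccne1 was held in E14.5 ganglion E1 (2233), P0 ganglion A6 (4770), E16.5 amacrine J6 (1719) and P0 amacrine G3 (5556), and Ccne2 in E14.5 ganglion E1 (1844). In 0 of 22 cells was Cdk2 held with either E-type cyclin or with Ccna2 (held in 5 cells), and in E14.5 ganglion E1 the Cdk2 signal was 74.3. With so few cells holding each gene, a lack of shared cells cannot show that the partners were kept apart.

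Licensing genes were held in 18 of the 22 cells, 9 of which held 1 and 9 held 2 or more. Mcm7 was the commonest, in 11 cells: 4 of 13 ganglion cells (25.3 to 6188, median 331), 4 of 6 amacrine cells (409 to 7069, median 1076) and all 3 photoreceptors (6736, 1914 and 2543 in the adult rod). No cell held all 6 subunits of the ring; 2 cells held 4 (E14.5 ganglion E1 and P0 photoreceptor H1), 5 held 2, 9 held 1 and 6 held 0. The largest single signals were Mcm2 at 41023 in E15.5 ganglion C7 and Mcm6 at 33790 in P0 amacrine D1. Each of these cells held 6 of the 38 measured members, the median of the 22 cells. Cdt1 was held in E12.5 ganglion E4 (6409) and the adult rod (1169), and Cdc6 only in the E14.5 pair (1782 and 1634), and no cell held both of these loading factors. Its brake Gmnn was held in 4 ganglion cells, E14.5 E1 (6687), P0 C6 (5908), P0 A6 (2204) and E12.5 F3 (1355), none of which held Cdt1. In E14.5 ganglion E1, which held both Cdc6 and Gmnn, Cdt1 lay just under the threshold (991). Cdt1 and Cdc6 were each held in 2 cells, too few for a lack of shared cells to be read as a result.

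E12.5 ganglion E4 held the most cycle-driving genes of the remaining 18 cells, 7 of 33 against 14.6% of all genes: Ccnd1 (6413), Cdk4 (13938), Cdt1 (6409), Mcm3 (3762), Mcm5 (5794), Pcna (8492) and Rrm1 (8962). All were genes of G1 or S phase, and it held none of the 12 mitosis members and no inhibitor. Of the wider lists it held 7 of 50 further mitosis genes, the most of the ganglion cells outside E14.5, but near its 14.6% share of all genes. Its 2 of 42 further replication genes lay below that share. The other E12.5 ganglion cells, F3 and F6, held 3 and 5 cycle-driving genes and each held 3 inhibitors.

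Pcna, the sliding clamp of replicative polymerases, was held in 13 cells, 8 of 13 ganglion cells (6.48 to 25568, median 1751), 4 of 6 amacrine cells (79.3 to 10708, median 4087) and 1 of 3 photoreceptors (29.8, 18618 and 485). The types overlapped over nearly the whole range. Ribonucleotide reductase, which makes deoxynucleotides, needs a large subunit, Rrm1, and a small one, Rrm2. Rrm1 was held in 8 cells of all 3 types, with 8962 in E12.5 ganglion E4 the highest (its 2 other probe sets were held in 1 and 0 cells), and Rrm2 in 3: E14.5 ganglion E1 (6544), E14.5 ganglion D8 (4815) and P0 ganglion C6 (4651). Both subunits were held only in D8 and C6. Thymidylate synthase, Tyms, was held in D8 (2700) and the adult rod (1197).

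In G2 and mitosis, 13 of 22 cells held no member. Ccna2, the A-type cyclin, was held in 5 cells, 4 ganglion cells (E14.5 D8 at 6397, E14.5 E1 at 3001, E12.5 F6 at 2915 and E13.5 A3 at 2376) and P0 amacrine F6 (1192). Its second probe set was held in 1 cell, which was none of these. Cdk1, the mitotic kinase, was held in E14.5 E1 (7545), E14.5 D8 (1744) and the adult rod (1458), and with Ccna2 only in the E14.5 pair. Topoisomerase Top2a reached 11507 in P0 amacrine D1, 9516 in E14.5 E1 and 3942 in E14.5 D8.

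Other mitotic genes were held in 1 or 2 cells. Aurkb, the Aurora kinase of the passenger complex, was held in P0 amacrine B1 (9866), on the array that was rescaled, and in E14.5 E1 (1931). Bub1 was held in C6 (1998) and E14.5 E1 (1080), Plk1, the polo-like kinase, in E12.5 ganglion F6 (1379), and Bub1b, another checkpoint protein, in the adult rod (15246). Aurka, the spindle pole kinase, was held in none, with a highest signal of 572 in the adult rod. Outside the E14.5 pair, no cell held more than 2 of the 12.

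P0 amacrine D1 held high signals of single genes from several phases: Ccnd1 (24917), Mcm6 (33790), Top2a (11507), Rrm1 (4826), Cdk2 (2439) and Mcm7 (1729). These are 6 of the 33 cycle-driving genes, in a cell that held 11.2% of all genes. It did not hold Cdk4 (262) or any inhibitor. Of 6 amacrine markers it held Tfap2a (7085), Tfap2b (15786) and Gad1 (10106), and not Gad2 (13.2), Slc6a9 (238) or Slc32a1 (315). It also held the ganglion marker Sncg (11947), the vascular marker Kdr (1413) and 2 of 7 glial markers, Glul (2154) and Slc1a3 (5856), the latter in no other cell. The part of these in its counts was not tested. Its 6 of 50 further mitosis genes and 2 of 14 progenitor factors lay near its share of all genes.

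CDK inhibitors were held in 18 of 22 cells; the 4 without any were E12.5 ganglion E4, P0 ganglion C6, P0 amacrine A4 and P0 amacrine D1. Cdkn1b (p27) was held in 14 cells on the probe set used, while its other probe set was held in 1 cell that was not among them (2045). Ganglion cells held it in 9 of 13, from 12.6 to 12157 with a median of 2500 (n = 13), amacrine cells in 3 of 6 (61.2 to 6089, median 1036), and the photoreceptors had 17023 in E1, 3230 in H1 and 282 in the adult rod. Cdkn1b was held in all 3 E15.5 ganglion cells (3911 to 12157) and in both E14.5 cells (2219 and 1633). The other ganglion cells that held it were E13.5 A3 (5221), E12.5 F3 (4286) and F6 (2500), and P0 A3 (3455). Holding Ccnd1 did not go with lacking Cdkn1b: 9 of the 12 cells with Ccnd1 held Cdkn1b, and 5 of the 10 without it did.

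Cdkn2d (p19, of the INK4 family that binds Cdk4 and Cdk6) was held in 10 cells, from all 3 types, with 13063 in E15.5 ganglion B1 the highest. It was held together with Cdkn1b in 8 cells. Cdkn1c (p57) was held in 4 ganglion cells only, E12.5 F3 (7678), E12.5 F6 (7138), P0 A6 (6976) and E15.5 B1 (1387), and its highest signal outside ganglion cells was 523. These 4 cells came from 3 stages. Cdkn2c (p18, INK4) was at 362641 in the adult rod, where P0 photoreceptors, all ganglion cells and 5 of 6 amacrine cells lay at 316 or less and E16.5 amacrine J6 at 664. Cdkn1a (p21) was held in the adult rod alone (1186).

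The adult rod held 6 cycle-driving genes and no D-type cyclin. Cdk4 (215041), Cdkn2c (362641) and Bub1b (15246) were the highest of the 22 cells. On its array 5.35% of all genes reached 2000, against 7.74% to 16.1% in the other cells, while the photoreceptor marker Gnat1 reached 993531. The size of its bright signals may thus not compare with that in other cells. The rod's other held members, Cdt1, Mcm7, Tyms, Cdk1 and Cdkn1a, lay between 1169 and 2543 on an array with a raised background. The median difference of the 18 tested members between the adult rod and the P0 photoreceptors was -0.02 on the log2 scale, against 0 for all tested genes, with 1 cell on one side and no test.

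Cell types were compared over 9 type-and-stage samples, each the mean log2 signal of its cells (5 of ganglion cells, 2 of amacrine cells and 2 of photoreceptors), with limma across 7184 genes held in at least 3 cells. Only P0 was sampled in every type, and the model had no term for stage. Differences between types therefore cannot be told apart from differences between stages. Of the 38 measured members, 18 were held widely enough to be tested, 18 were held in 1 or 2 cells and 2 in none. Since no source says that the samples came from separate animals, p-values refer only to the spread between these samples. In the main fit that spread was taken from the intensity trend over all 7184 genes, and not from each gene alone.

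Between ganglion and amacrine cells, 0 of the 18 members passed an adjusted p of 0.05 (limma, Benjamini-Hochberg over all 7184 genes), against 5 genes of all (0.0696%; 0.0418% higher and 0.0278% lower in ganglion cells), and 0 had an unadjusted p under 0.05, against 3.94% of all genes. The adjusted p was 0.999 for each of the 18. In 0 of the 18 did the ganglion and amacrine samples lie apart without overlap, against 8.52% of all tested genes. Member differences ran from -1.40 for Ccne1 to 1.76 for Mcm2 with a median of 0.28, against -0.06 for all genes. Mcm2 averaged 9.45 in ganglion and 7.70 in amacrine samples, a difference of 1.76 ± 1.26 (standard error), and Ccnd1 averaged 11.06 and 9.40, a difference of 1.66 ± 1.45. Rrm2, above the floor in no amacrine sample, differed by 1.22 ± 0.87, and Ccna2 by 1.39 ± 1.10. Cdkn2d had the opposite sign, at -1.33 ± 1.40, as did Rrm1 at -1.24 ± 1.25 and Pcna at -0.99 ± 1.47. The 95% interval for Pcna ran from -3.88 to 1.90 and that for Cdk4 from -1.98 to 2.67, so changes of several fold in either direction lay within the error.

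Photoreceptors were set against the average of the other types' means, and 0 of the 18 members passed there as well, against 152 genes of all (2.12%; 1.5% higher and 0.612% lower in photoreceptors). The largest member difference was that of Cdk4, at 2.63 ± 1.16 with a limma adjusted p of 0.300 (unadjusted 0.0237; 12.2% of all genes had an unadjusted p under 0.05). Its photoreceptor samples, 14.27 at P0 and 17.71 in the adult rod, lay above all 7 other samples (12.62 to 13.86), and 10.1% of all tested genes were separated in that way in either direction. Without the adult rod and E16.5 amacrine J6, a setting added after seeing the data, the difference was 0.91 (adjusted p 0.828). Mcm7 differed by 1.54 ± 1.42 and Mcm2 by 1.18 ± 1.24, and the lowest values were those of Pcna at -1.36 ± 1.45 and Cdkn1c at -1.30 ± 1.12. The members' median was -0.34, against -0.57 for all genes.

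**Figure D5:**
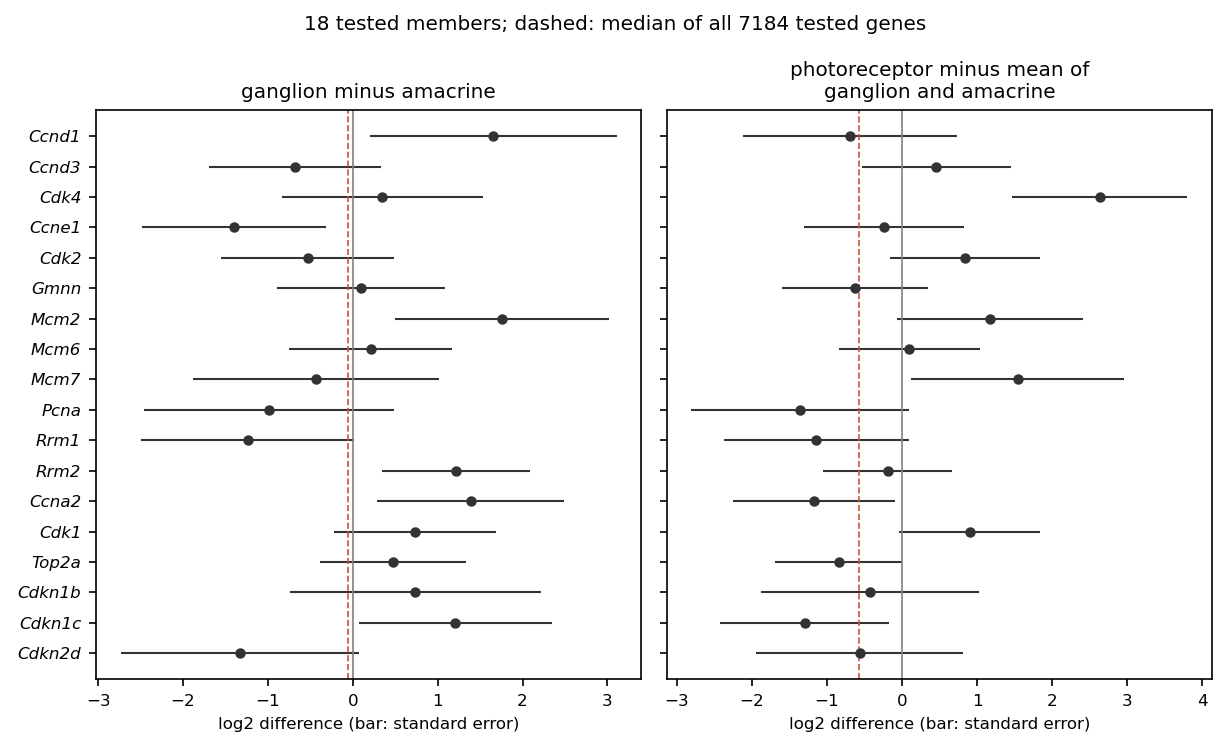
Points are log2 differences of the 18 tested members and bars their standard errors, for ganglion minus amacrine samples and for photoreceptors minus the mean of both; the dashed line is the median of all 7184 genes. Standard errors of 0.84 to 1.48 span most of the differences, and Cdk4 in photoreceptors (2.63) stands farthest to the right.

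Of the further pathway genes, tested members numbered 20 of 42 replication genes, 18 of 50 mitosis genes and 13 of 23 pocket protein, E2F and cell cycle exit genes. None passed between ganglion and amacrine cells, and 2 passed in photoreceptors, both upward. Rpa1, a subunit of the single-strand DNA binding complex, was higher by 5.10 ± 1.30 (limma adjusted p 0.00924), with 17.03 in the adult rod and 9.31 at P0. E2f4, a repressor E2F of resting cells, was higher by 4.53 ± 1.31 (adjusted p 0.0317), with 16.22 in the adult rod and 9.50 at P0. Both rested on the adult rod, whose signals were 134119 and 76402: without it the differences were 1.24 and 1.17 (adjusted p 0.75 for each). Leaving out E16.5 amacrine J6 also ended both calls (adjusted p 0.177 and 0.263), leaving out P0 photoreceptor H1 ended that of Rpa1 (0.0534), and leaving out any of E14.5 ganglion E1, E15.5 ganglion B1 or B5 or P0 photoreceptor E1 ended that of E2f4 (0.0626 to 0.151). Both calls, with Rpa1 given first, were also lost with no filter (0.333 and 0.333), with the median over cells (0.220 and 0.168), with the mean over probe sets (0.139 and 0.129), without the trend in eBayes (0.0855 and 0.0940) and with quantile normalization (0.0853 and 0.0878), and that of E2f4 with a floor of 100 (0.0546) and without the E14.5 cells (0.0522).

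The pathway genes held in the most cells were led by a neuronal gene. Cdk5r1, the neuronal activator of Cdk5, was held in 18 cells, Bub3 and the antiproliferative gene Btg1 in 17 each, Rb1, the retinoblastoma pocket protein, in 14, Slbp, the histone mRNA binding protein, in 14, and Cdk5 and Ccng2 in 13 each. The next in the replication list were Pold2 (8 cells), Rfc2, Prim2 and Gins1 (7 each), and in the mitosis list Hmgb2 (8), Pttg1 (7), Cks1b (6) and Ube2c (5). Of these, E14.5 ganglion E1 held Bub3, Slbp, Btg1, Rb1, Cdk5r1, Ccng2, Rfc2, Prim2, Gins1, Hmgb2, Pttg1 and Cks1b.

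Within P0, where all 3 types were sampled, ganglion and amacrine cells held 2 to 9 and 2 to 6 cycle-driving genes. The median difference of the 18 tested members between the P0 ganglion and P0 amacrine means was -0.08, against 0.23 for all genes, with 1 sample on each side and no test. Over ganglion stages the mean log2 signal of Ccnd1 was 10.94 at E12.5, 7.64 at E13.5, 14.07 at E14.5, 13.61 at E15.5 and 9.02 at P0, and that of Cdkn1c was 11.12, 9.77, 8.65, 9.26 and 8.92. Each stage is 1 sample of 1 to 4 cells, and stage was not tested.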

How the data were processed

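The deposited values are signal intensities on a linear scale, computed by the authors with MAS5 per the submitters' processing notes, for 22 single cells whose cDNA was amplified by 35 PCR cycles per the labels' protocols. The number of arrays limits the precision. By their values, 21 arrays had a 2% trimmed mean of 500, and that of P0 amacrine B1 (18.1) was scaled to it. Of 45101 probe sets, 34958 had 1 gene symbol in the platform annotation, 932 several and 9211 none. The probe set with the highest mean floored log2 signal stood for each gene. Signals were raised to 200 and log2 transformed. Cells of a type and stage were averaged into 9 samples, since no animal is named, and a linear model (lmFit, then eBayes with an intensity trend, limma 3.58.1, R 4.3.3) was fitted to 7184 genes held at 1000 or more in at least 3 cells, with Benjamini-Hochberg adjustment at 0.05. The prior degrees of freedom were estimated as infinite, so the standard errors and p-values of a gene used the spread of the trend in place of its own. The fit was also run on simulated data with normal noise, no floor and added shifts larger than any member difference. That run cannot show whether differences of the members' size would be found.

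The members and all gene lists were chosen with earlier results of these data known. The named genes were all members, the pathway genes that passed a test, the 5 of each pathway list held in the most cells, and the progenitor, neuron and marker genes held by a named cell. Promoters came from RefSeq (GRCm38.p6), and Ccnd1, Ccnd2, Ccne2, Gmnn, Mcm4, Ccna2, Aurkb and Cdkn1c had no entry. Alternatives varied the floor, the filter, the threshold, the normalization, the probe set rule and the averaging, and left out each cell in turn.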

Additional observations from a re-analysis of the deposited data

Results flagged for a closer look

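In the 4 P0 ganglion cells and the 5 P0 amacrine cells, 28 sets of values (a member held by at least 1 cell of the group) were searched for a cell far from the others, and 14 were found. Chance alone gives about 1 in 20 such sets, but a gene held in 1 cell with the rest near the floor always gives one, and 12 of the 14 are of that kind. The other 2 are Cdk4, held by every cell of its group but 1. The restriction to held members was made after seeing the values, and without it 33 of 50 sets had such a cell. Values are log2 signals, with a floor of 7.64.

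P0 ganglion C6 stood above the other 3 ganglion cells for Ccnd1 (13.16, others 7.64), Pcna (14.64, others at most 8.05), Rrm2 (12.18, others at most 8.26) and Bub1 (10.96, others 7.64). P0 ganglion A6 was low for Cdk4 (9.02, others 13.58 to 14.27) and high for Ccne1 (12.22) and Cdkn1c (12.77). P0 ganglion F1 was high for Mcm4 (10.45). P0 amacrine D1 was low for Cdk4 (8.03, others 14.04 to 15.19) and high for Cdk2 (11.25), Mcm6 (15.04) and Top2a (13.49). P0 amacrine G3 was high for Ccne1 (12.44), and P0 amacrine B1 for Aurkb (13.27). The cause was not tested for any of them.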

How the results depend on the processing

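In every setting run, 0 members passed in either comparison of types. The differences of single members kept their sign in 1016 of 1064 refits and changed it in 48. In ganglion minus amacrine cells the sign changed with a floor of 500 for Mcm7 (0.10), with quantile normalization for Cdk4 (-0.051) and Cdk2 (0.027), with the mean over probe sets for Ccnd1 (-0.022) and Mcm7 (0.55), and with the median over cells for Gmnn (-0.15). It changed without the E14.5 ganglion cells, a setting added after seeing the data, for Gmnn (-0.25) and Mcm6 (-0.17), and without the adult rod and E16.5 amacrine J6, likewise added, for Mcm6 (-0.53), Pcna (0.28) and Top2a (-0.15). For photoreceptors it changed with a floor of 100 for Ccne1 (0.052), a floor of 500 for Ccnd3 (-0.061) and Mcm6 (-0.0045), quantile normalization for Ccne1 (0.043) and Mcm6 (-0.046), the mean over probe sets for Ccnd1 (0.56) and Cdkn1b (0.56), and the median over cells for Ccne1 (0.15). Without the adult rod and J6 it changed for Ccnd1 (0.47), Pcna (0.27), Rrm1 (0.22), Cdkn1b (2.56) and Cdkn2d (0.69). Leaving out 1 cell at a time, ganglion minus amacrine values ran from -0.30 to 0.60 for Cdk4, -0.41 to 1.12 for Gmnn, -0.53 to 0.95 for Mcm6, -1.03 to 0.041 for Mcm7, -1.40 to 0.28 for Pcna and -0.15 to 0.75 for Top2a. Photoreceptor values ran from -2.53 to 1.20 for Ccnd1, -0.035 to 0.95 for Ccnd3, -1.30 to 0.26 for Ccne1, -0.84 to 1.04 for Mcm6, -2.99 to 0.28 for Pcna, -1.03 to 1.93 for Cdkn1b and -1.97 to 0.84 for Cdkn2d. A gene under the filter in a setting has no value there. The cause was not tested.

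Genes passing between ganglion and amacrine cells numbered 5, and 1 with a floor of 500, 31 with no filter, 10 with quantile normalization, 1 with the mean over probe sets, 0 with the median over cells (limma; 264 at an unadjusted p under 0.05), 1 without the E14.5 cells, 2 without the adult rod and J6, and 1 to 9 with 1 cell left out, within 1.5 times of 5 only on omitting E12.5 ganglion E4 or F6, E15.5 ganglion C7, P0 ganglion A3 or A6, or P0 amacrine B1. For photoreceptors they numbered 152, and 56 with no filter, 44 with the mean over probe sets, 47 with the median over cells, 101 without the E14.5 cells, 27 without the adult rod and J6, and 44 to 161 with 1 cell left out, where only omitting J6 (44) or the rod (66) moved the count by over 1.5 times. At a threshold of 500, the most cycle-driving genes in the other 18 cells were 15, in the adult rod, as many as in E14.5 ganglion D8, so that only E14.5 ganglion E1 stood above all of them, and 4 cells held 3 or more mitosis members. The counts of the 4 named cells stayed within 1.5 times under each threshold, normalization and probe set rule run. No paired analysis was possible because the labels give cell codes, not replicate numbers that recur between groups. A signal under 1000 does not show that a transcript was absent from the cell.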
